A study of Mus musculus with 2 samples.

Results

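A set of 10 genes of the BMP and TGF-β pathway was described in CD31+ cells of the neonatal mouse mesentery. These were the ligands Bmp2, Bmp4 and Bmp6, the receptors Bmpr2, Acvrl1 and Eng, the inhibitory Smads Smad6 and Smad7, and the target genes Id1 and Id3. They were taken by symbol from the gene list of the libraries, where each of the 10 occurred once among 28692 genes. No cutoff on a measured value was used, but the set was chosen with earlier results of these data known. The data came from 1 control library and 1 library of Flcn iΔEC mice, in which Flcn, the gene of the tumor suppressor folliculin, was deleted in endothelial cells. Flcn iΔEC mice were Cdh5-BAC-CreERT2+ Flcn flox/flox, so recombination was driven by the promoter of the endothelial cadherin gene Cdh5 and depended on 4-hydroxytamoxifen, whereas the alleles of the control mice were not given in the labels. All mice were C57BL/6, were given 40 μg of 4-hydroxytamoxifen under the skin at P2 and again at P3.5, P5 and, last, P6.5, and were analysed at P8. Each library held cells of 3 mice, so the library, not the mouse, was the unit, and no test between genotypes was possible.

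Bone morphogenetic proteins (BMPs) and TGF-β are secreted dimers that join type I and type II receptor kinases at the cell surface. The activated type I receptor phosphorylates receptor Smads, which enter the nucleus with Smad4 and switch on targets such as the Id genes, while Smad6 and Smad7 are induced by the pathway and hold it back. In endothelial cells, circulating BMP9 and BMP10 act through ALK1, the product of Acvrl1, together with BMPR2 and the coreceptor endoglin (Eng), and loss of these receptors causes vascular malformations or pulmonary hypertension.

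The control library had 6814 cells and the Flcn iΔEC library 4459, with 64639756 and 60805779 UMIs (unique molecular identifiers, each counting 1 captured RNA molecule). Endothelial cells were those with at least 2 UMIs of Cdh5, which left 566 control and 892 Flcn iΔEC cells. They were clustered without the members and without 73 other genes of the pathway, and clusters were called after their markers as VEC-like (venous), AEC-like (arterial), capillary-like, HEV-like (high endothelial venule) and LEC-like (lymphatic). A cluster with as many arterial as capillary markers, led by Cxcl12 and Rbp7, is called the arterial-capillary cluster. Of the 8 LEC markers, all were detected in LEC-like cells of both libraries, at a summed 6320 CPM in control and 7719 in Flcn iΔEC (CPM, counts per 1000000 UMIs, summed over the cells of a type), against 95.9 and 229 in VEC-like cells. All 8 were detected in HEV-like cells too, at a summed 2809 CPM in control and 3124 in Flcn iΔEC. HEV-like cells also carried leukocyte genes, with all 7 ILC and NK markers detected and a summed 805 CPM in control and 743 in Flcn iΔEC, against 28.5 and 22.3 in VEC-like cells. The libraries differed in sex, since the control library had 9 UMIs of Xist and 15535 of Y-linked genes, and the Flcn iΔEC library 63462 and 17. Genotype, sex and library therefore cannot be told apart. Flcn itself had 10.2 CPM in the endothelial cells of the control library and 9.74 CPM in those of the other, but reads from the 3′ end of the transcript do not check a deletion further upstream. All ranges in parentheses are 95% intervals for counting error, and do not cover variation between mice.

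Smad6 and Bmp4 carry contrasts between arteries, veins and lymphatics described here. The DNA before their start sites is shown because those sites also match an end of the gene in GENCODE and a motif marked below lies near them. The start site of Eng matches too, but Eng held no such motif and is not shown. The sequences are those of RefSeq (GRCm38.p6), from 250 bases before the start site to 25 bases after it, 5′ to 3′ on the strand of the gene. Capitals mark a palindromic Smad motif, GTCTAGAC, at 4 bases before the Smad6 start site, and the E-box CACGTG, which is bound by several helix-loop-helix factors including TFE3, at 188 bases before the Bmp4 start site.
Smad6, chr9:64022035-64022309, minus strand: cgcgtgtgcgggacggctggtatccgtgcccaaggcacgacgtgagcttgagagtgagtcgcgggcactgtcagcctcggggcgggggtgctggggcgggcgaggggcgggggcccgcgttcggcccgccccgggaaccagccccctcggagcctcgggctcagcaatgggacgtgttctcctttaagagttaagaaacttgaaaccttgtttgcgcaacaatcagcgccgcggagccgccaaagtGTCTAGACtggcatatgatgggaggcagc
Bmp4, chr14:46390645-46390919, minus strand: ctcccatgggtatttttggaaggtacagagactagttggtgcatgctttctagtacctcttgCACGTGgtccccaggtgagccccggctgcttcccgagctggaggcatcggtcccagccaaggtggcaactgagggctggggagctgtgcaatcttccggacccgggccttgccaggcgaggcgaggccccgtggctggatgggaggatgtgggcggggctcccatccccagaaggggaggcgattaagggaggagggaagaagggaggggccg
Of the members, 6 of 10 had such a window of 300 bases in the RefSeq table (Bmp4, Bmp6, Bmpr2, Eng, Smad6 and Id3). Of 32851 windows of this length, 70 (0.213%) held GTCTAGAC and 2349 (7.15%) held CACGTG, and both motifs read the same on either strand. CACGTG also lay 127 bases before the Bmp6 start site, and GGCGCC, a GC-rich Smad motif found in 11.9% of windows, lay 105 bases before that of Bmpr2. Eng and Id3 held none of the 3 motifs in this window. The RefSeq start sites of Bmp6, Bmpr2 and Id3 lie downstream of the gene start in GENCODE, so these windows lie within the annotated gene.

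Most members were higher in endothelial cells than in cells without a Cdh5 UMI, most of which were lymphocytes, with the exception of Smad7. Bmp2 was also present in ILC and NK-like cells, and the few stromal-like cells also held Bmp4, Id1 and Id3. A gene was counted as higher or lower when it had at least 50 UMIs over both groups and its CPM, after 1 count was added to each sum, differed at least 2-fold. By this rule 8 of 9 members tested were higher in control endothelial cells than in cells without a Cdh5 UMI, against 28.9% of all genes. In the Flcn iΔEC library 9 of 10 were higher, against 27.8% of all genes. Endoglin, for instance, stood at 461 CPM in control endothelial cells and at 6.38 CPM in control cells without a Cdh5 UMI, a ratio of 72.2 (64.5–81.1), and at 496 and 10.2 CPM in the Flcn iΔEC library, a ratio of 48.4 (43.4–54.2). Bmp6 had no UMI in control cells without Cdh5 and 22 in control endothelial cells, too few for the rule. Smad7 went the other way, with 171 CPM in endothelial cells and 315 CPM in the others of the control library, and 121 and 302 CPM in the Flcn iΔEC library.

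LEC-like cells held less of most members than blood endothelial cells, taken as the sum of VEC-like, AEC-like and capillary-like cells. HEV-like cells and the arterial-capillary cluster were not in this sum. In the control library 7 members of 9 tested were lower in LEC-like cells and 1, Bmp2, was higher, against 16.5% of all genes that differed in either direction. In the Flcn iΔEC library 9 of 10 were lower and Bmp2 was again higher, against 19.6% of all genes. The members were lower as a group, with a median log2 ratio of -1.92 in control and -1.98 in Flcn iΔEC, beside 0.07 and 0.01 over all genes tested. Id3, which missed the 2-fold limit in control, was at a ratio of 0.512 (0.481–0.545) in control and 0.303 (0.290–0.316) in Flcn iΔEC.

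**Figure D1:**
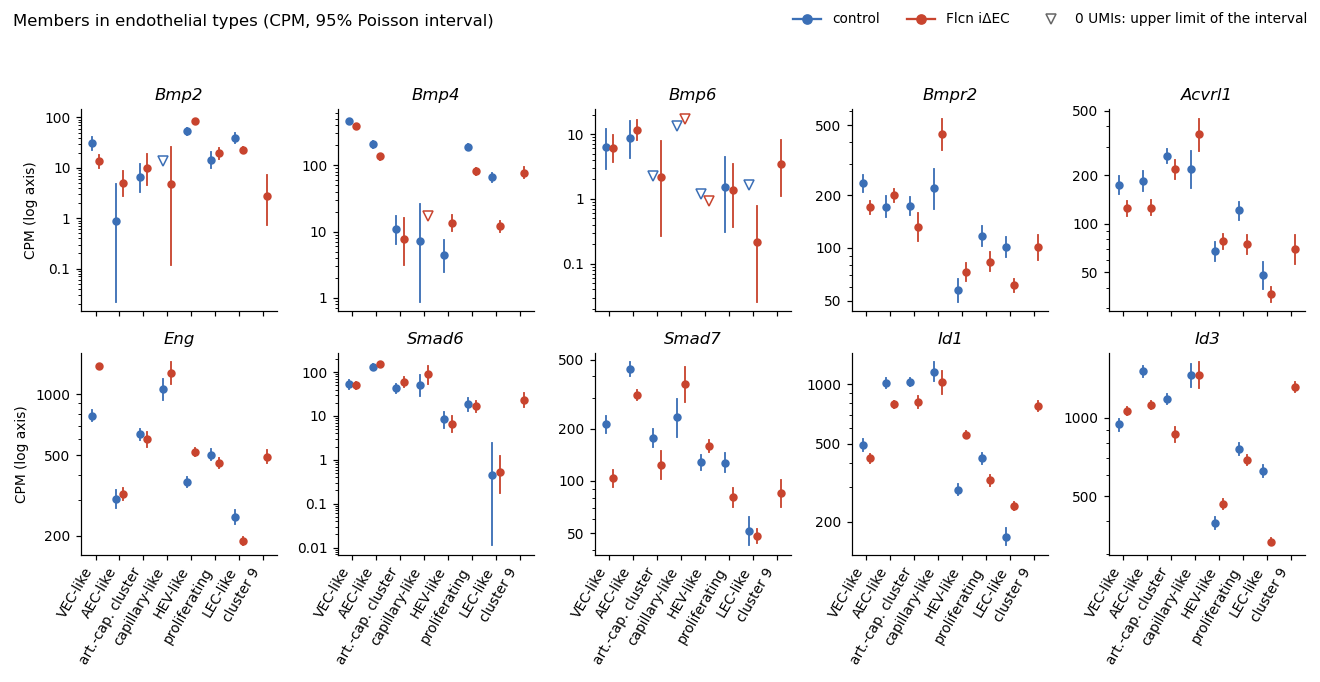
CPM of each member (log axes that differ between panels, so levels are not compared between genes) in 7 endothelial types and in cluster 9, for the control (blue) and Flcn iΔEC (red) library, with 95% Poisson intervals; open triangles mark the upper limit where no UMI was counted. Smad6 lies at 0.444 and 0.536 CPM in LEC-like cells and at 133 and 150 CPM in AEC-like cells, and Bmp4 is highest in VEC-like cells.

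**Figure D2:**
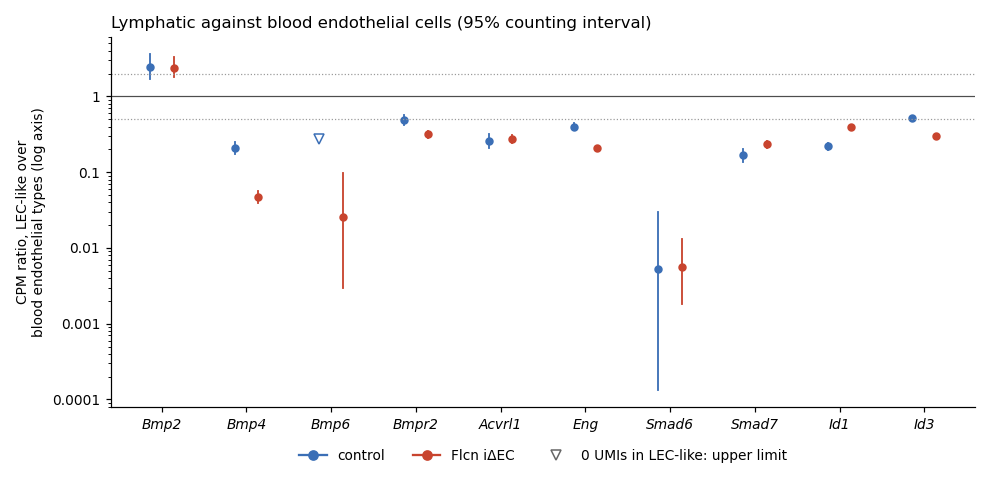
Ratio of the CPM of LEC-like cells to that of blood endothelial cells (VEC-like, AEC-like and capillary-like, log axis) for each member, with 95% intervals for counting error. Dotted lines mark 2-fold and the open triangle an upper limit. Bmp2 lies above 1 in both libraries and all other members below it, with Smad6 at 0.00523 and 0.00555.

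Among the ligands, Bmp4 (chromosome 14, 46383520–46390669) was highest in VEC-like cells. It was at 464 CPM in VEC-like cells of the control library (668 UMIs in 70 cells) and at 382 CPM in those of the Flcn iΔEC library (1183 UMIs in 121 cells), and at 205 and 135 CPM in AEC-like cells. The order VEC-like over AEC-like held in both libraries, at AEC-like over VEC-like ratios of 0.441 (0.378–0.512) and 0.353 (0.313–0.397). Capillary-like cells had 2 Bmp4 UMIs in control and none in Flcn iΔEC, and HEV-like cells only 4.49 and 13.6 CPM. After each cell was thinned to 2000 UMIs, 39 of 69 control VEC-like cells had Bmp4 (56.5%, 44.0–68.4) as did 56 of 120 Flcn iΔEC ones (46.7%, 37.5–56.0), whereas 0 of 2522 control T cell-like cells did, which at this depth allows up to 0.119% of cells with a UMI, and 7 UMIs were counted in them without thinning. Bmp4 was among the 10 leading genes of the VEC-like cluster although it had been kept out of the clustering.

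Bmp4 was also the member that differed most between the libraries in lymphatic cells. In LEC-like cells it stood at 65.6 CPM in control (148 UMIs in 97 cells) and at 12.1 CPM in Flcn iΔEC (113 UMIs in 339 cells), a ratio of 0.185 (0.143–0.237). Both values lay far above the 0.348 and 0.554 CPM of T cell-like cells, which were taken as background. The control value was lower than that of VEC-like cells and the Flcn iΔEC value lower still. Of the Bmp4 UMIs of LEC-like cells, 38.5% came from the 5 cells with most UMIs in control and 25.7% in Flcn iΔEC. When every cell was given the same weight, the mean was 92.9 in control and 13.1 CPM in Flcn iΔEC. Unthinned, Bmp4 was seen in 40.2% (30.4–50.7) of control LEC-like cells and in 17.7% (13.8–22.2) of the Flcn iΔEC ones, although the latter were deeper, with a median of 24159 against 16305 UMIs. In LEC-like cells the AEC markers summed to 703 and 187 CPM, the capillary markers to 2483 and 1560 CPM and the ILC and NK markers to 259 and 62.6 CPM, and their part in the Bmp4 difference was not tested. After thinning, Bmp4 was in 9 of 97 control cells (9.28%, 4.33–16.9) and 4 of 339 Flcn iΔEC cells (1.18%, 0.322–2.99).

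Bmp2 (chromosome 2, 133552159–133562885), the closest relative of Bmp4 among the ligands, had a different distribution. It was highest in HEV-like cells, at 53.3 in control and 85.3 CPM in Flcn iΔEC, and in 1 of the LEC-like clusters. In VEC-like cells it was at 30.6 CPM in control (44 UMIs) and at 13.5 CPM in Flcn iΔEC (42 UMIs), a ratio of 0.443 (0.283–0.692). AEC-like cells had 1 UMI in control and 14 in Flcn iΔEC. Of the Bmp2 UMIs of control VEC-like cells, 70.5% came from 5 cells, and the median cell had none in either library. Bmp2 was also present in ILC and NK-like cells, and the part of the leukocyte genes of HEV-like cells in its level there was not tested.

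Bmp6 (chromosome 13, 38345107–38500302), a ligand that induces hepcidin in the liver, was counted rarely. Its 22 UMIs in control endothelial cells included 10 in AEC-like and 9 in VEC-like cells, and its 71 UMIs in Flcn iΔEC endothelial cells included 32 and 19. LEC-like cells had 0 and 2 UMIs and HEV-like cells none in either library. Over all endothelial cells its level was 1.58 in control and 2.61 CPM in Flcn iΔEC, a ratio of 1.66 (1.01–2.81) that missed the 2-fold limit.

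Among the receptors, the coreceptor Eng (chromosome 2, 32646595–32682669) showed the clearest difference in veins. In VEC-like cells Eng stood at 784 CPM in control (1128 UMIs) and at 1371 CPM in Flcn iΔEC (4250 UMIs), a ratio of 1.75 (1.64–1.87) that stayed under 2-fold. The median VEC-like cell had 748 CPM of Eng in the control library and 1292 CPM in the other, so the difference did not lie in a few cells. Capillary-like cells had 1056 and 1274 CPM, AEC-like cells 305 and 320 CPM, and LEC-like cells 247 and 188 CPM. In order of level, capillary-like cells were followed by VEC-like cells in control, whereas in the Flcn iΔEC library these types overlapped within their counting intervals, at a capillary-like over VEC-like ratio of 0.929 (0.819–1.05). Arteries and lymphatics were the low types for Eng in both libraries.

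Acvrl1 (chromosome 15, 101128522–101145336), which encodes the type I receptor ALK1, was highest in the arterial-capillary cluster in control, at 263 CPM, and in capillary-like cells in Flcn iΔEC, at 357 CPM from only 17 cells. VEC-like cells held 174 in control and 125 CPM in Flcn iΔEC, and AEC-like cells 184 and 126 CPM, so that arteries and veins differed by less than counting error in either library, with AEC-like over VEC-like ratios of 1.06 (0.876–1.27) and 1.01 (0.871–1.17). LEC-like cells had 47.9 and 36.8 CPM. Between the libraries the ratio was 0.714 (0.608–0.840) in VEC-like, 0.682 (0.573–0.814) in AEC-like and 0.768 (0.617–0.963) in LEC-like cells, in each case lower in Flcn iΔEC and none past 2-fold.

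Bmpr2 (chromosome 1, 59763400–59879014), the type II receptor, was spread over the blood endothelial types other than HEV-like cells, at 233 CPM in VEC-like, 172 in AEC-like, 173 in arterial-capillary and 218 in capillary-like cells of the control library. In the Flcn iΔEC library the same types had 170, 200, 131 and 447 CPM. The last value rested on 95 UMIs from 17 cells, and the ratio of 2.04 (1.46–2.87) turned below 1 when the Cdh5 gate was set at 1 or at 3 UMIs. LEC-like cells had 101 in control and 60.9 CPM in Flcn iΔEC, a ratio of 0.605 (0.518–0.709). HEV-like cells were low as well, at 57.4 CPM in control and 73.0 in Flcn iΔEC.

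Smad6 (chromosome 9, 63953076–64022059), which blocks BMP receptor signalling, had the lowest LEC-like over blood ratio of the members counted in LEC-like cells of both libraries. AEC-like cells had 133 CPM in control (152 UMIs) and 150 CPM in Flcn iΔEC (411 UMIs), and VEC-like cells 52.8 CPM (76 UMIs) and 49.7 CPM (154 UMIs). LEC-like cells had 1 UMI in control, among 2254574 UMIs of 97 cells, and 5 UMIs in Flcn iΔEC, among 9323220 UMIs of 339 cells. The levels in arteries were above those in veins, and those in lymphatic cells were close to none. The LEC-like over blood ratio was 0.00523 (1.32e-04–0.0294) in control and 0.00555 (0.00180–0.0130) in Flcn iΔEC. Smad6 was seen in 1.03% (0.0261–5.61) of control and 0.885% (0.183–2.56) of Flcn iΔEC LEC-like cells without thinning, and in 0.158% and 0.273% of T cell-like cells, which were shallower, with medians of 7488 and 7744 UMIs. Its share in LEC-like cells was therefore not told apart from background by these intervals. In AEC-like cells the unthinned share was 73.6% (59.7–84.7) and 85.5% (77.5–91.5). Smad6 differed between the libraries by less than counting error in VEC-like, AEC-like, arterial-capillary and HEV-like cells, and every interval of these ratios spanned 1.

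Smad7 (chromosome 18, 75367529–75395935), the inhibitor of both TGF-β and BMP signalling, was likewise higher in arteries than in veins. AEC-like cells had 442 CPM in control (503 UMIs) and 313 CPM in Flcn iΔEC (855 UMIs), and VEC-like cells 213 CPM (306 UMIs) and 104 CPM (321 UMIs). In both types the Flcn iΔEC library was the lower one, with a ratio of 0.487 (0.415–0.572) in VEC-like and 0.708 (0.633–0.792) in AEC-like cells. With equal weight per cell the VEC-like means were 189 and 100 CPM, which are less than 2-fold apart. The AEC-like over VEC-like ratio was 2.08 (1.80–2.40) in control and 3.02 (2.65–3.44) in Flcn iΔEC. LEC-like cells had 51.5 and 48.3 CPM, a ratio of 0.938 (0.763–1.16) within counting error. After thinning, Smad7 was in 33.3% (22.4–45.7) of control and 17.5% (11.2–25.5) of Flcn iΔEC VEC-like cells. The VEC markers summed to 4962 and 2871 CPM in VEC-like cells and the LEC markers to 95.9 and 229 CPM. In the same cells the capillary markers summed to 8329 and 2339 CPM, the smooth muscle and pericyte markers to 197 and 68.7 CPM and the fibroblast markers to 152 CPM in control and less in Flcn iΔEC, and the part of these shifts in the VEC-like values of Smad7, Bmp2 and Eng was not tested.

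The targets Id1 and Id3 encode helix-loop-helix proteins that lack a DNA-binding region and block other factors of their class. Id1 (chromosome 2, 152736251–152737410) was high in AEC-like cells, at 1021 in control and 792 CPM in Flcn iΔEC, in arterial-capillary cells, at 1025 and 816 CPM, and in capillary-like cells, at 1158 and 1030 CPM. These 3 types were thus close to one another and above VEC-like cells, which had 492 and 420 CPM. LEC-like cells were the lowest named type, at 168 CPM in control (379 UMIs) and 240 CPM in Flcn iΔEC (2242 UMIs). Here Id1 was higher in the Flcn iΔEC library, at a ratio of 1.43 with a lower limit of 1.28, and in HEV-like cells it was higher too, at 292 and 554 CPM and a ratio of 1.90 (1.75–2.05). In HEV-like cells the HEV markers summed to 12706 and 5198 CPM and the B cell markers to 604 and 193 CPM, and their part in that difference was not tested. In VEC-like, AEC-like and arterial-capillary cells Id1 was lower in Flcn iΔEC, with ratios of 0.854 (0.779–0.937), 0.775 (0.722–0.833) and 0.796 (0.729–0.868).

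Id3 (chromosome 4, 136143497–136145755) followed Id1 in arteries but not in lymphatic cells. AEC-like cells had 1511 in control and 1118 CPM in Flcn iΔEC, and VEC-like cells 943 and 1065 CPM. LEC-like cells had 624 CPM in control (1407 UMIs) and 334 CPM in Flcn iΔEC (3116 UMIs), a ratio of 0.536 (0.503–0.571) that lay just inside the 2-fold limit. The LEC-like median cell had 463 in control and 186 CPM in Flcn iΔEC. The share of LEC-like cells with Id3 after thinning was 68.0% (57.8–77.1) and 35.7% (30.6–41.0), whereas that for Id1 was 28.9% (20.1–39.0) and 30.1% (25.3–35.3). Id1 thus differed in its summed level while the intervals of its shares overlapped, and in control 32.5% of the Id1 UMIs of LEC-like cells came from 5 cells.

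The members were also counted between endothelial types of the same library. Between AEC-like and VEC-like cells 5 of 8 members tested differed at least 2-fold in control, against 13.5% of all genes, and 5 of 10 in Flcn iΔEC, against 12.6%. Smad6 and Smad7 were higher and Bmp4 and Eng lower in arteries in both libraries. Between HEV-like and VEC-like cells 6 of 9 differed in control, against 25.4% of all genes, and 6 of 9 in Flcn iΔEC, against 21.9%. Bmp4, Bmpr2, Eng, Smad6 and Id3 were lower in HEV-like cells in both, Acvrl1 was lower in control, at a ratio of 0.386 (0.320–0.466), and Bmp2 was higher in Flcn iΔEC, at 6.30 (4.56–8.90). Between capillary-like and VEC-like cells 2 of 8 differed in control, against 16.6% of all genes, and 5 of 8 in Flcn iΔEC, against 21.2%. The marker sums of these 2 types overlapped. Capillary markers summed to 7223 CPM in control and 9107 in Flcn iΔEC capillary-like cells, against 8329 and 2339 in VEC-like cells. VEC markers summed to 2184 and 2685 CPM in capillary-like cells, against 4962 and 2871 in VEC-like cells.

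Between the libraries, none of the 10 members differed at least 2-fold over all endothelial cells, against 9.91% of all genes. In VEC-like cells 2 of 9 tested differed, Bmp2 and Smad7, both lower in Flcn iΔEC, against 7.78% of all genes. In LEC-like cells 1 of 8 differed, Bmp4, which was lower, against 11.1%. In AEC-like cells (5.23% of all genes) and in the arterial-capillary cluster (5.94%) no member passed the limit, in capillary-like cells 1 of 6 differed, Bmpr2, which was higher, against 7.58%, and in HEV-like cells 1 of 9, Bmp4, which was higher, against 4.30%. That HEV-like value rested on few cells, since 87.3% of the 55 Flcn iΔEC UMIs came from 5 cells, and with equal weight per cell the means were 6.25 and 9.86 CPM, which are less than 2-fold apart. In proliferating endothelial cells 1 of 9 differed, against 9.35%, and this was again Bmp4, at 187 CPM in the control library and 80.7 CPM in Flcn iΔEC. The LEC markers summed to 1085 CPM in the proliferating cells of control and 4100 CPM in those of Flcn iΔEC, and the part of this shift in the Bmp4 level was not tested. Endothelial clusters 7 and 12, which carried ILC and B cell genes, had 0 of 9 (4.54%) and 1 of 6 (11.3%), the last again Bmp4, at 84.6 and 231 CPM. With 0 to 2 members past the limit per type, these counts are too small to be read against the shares of all genes. When the libraries were clustered without integration only 1 Flcn iΔEC cell was VEC-like, so the VEC-like values rest on the integrated clustering. The median log2 ratio of the members tested was -0.28 in VEC-like, -0.565 in LEC-like and 0.34 in HEV-like cells, beside -0.09, -0.21 and 0.01 over all genes tested.

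**Figure D3:**
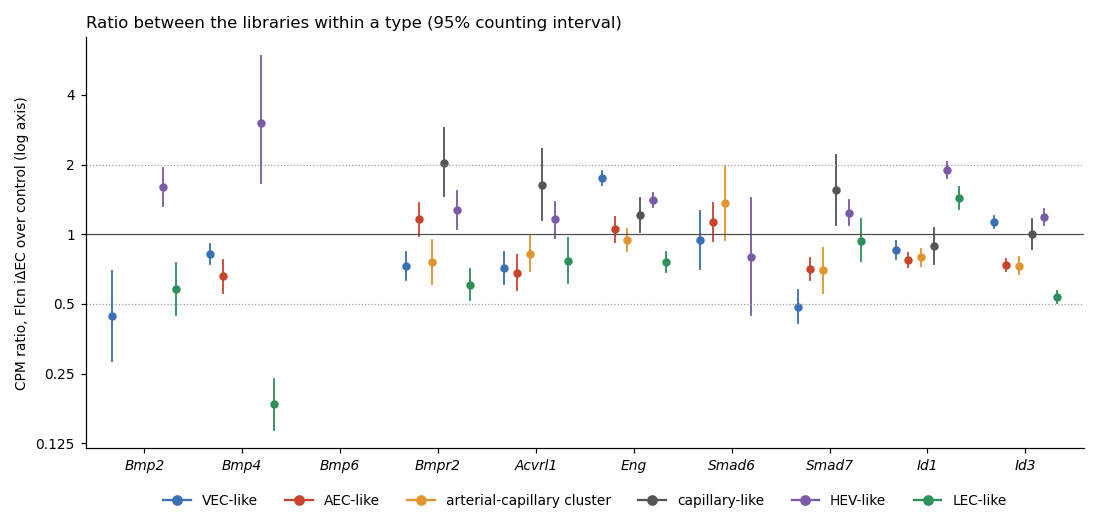
Ratio of the CPM in the Flcn iΔEC library to that in control (log axis) for each member with at least 50 UMIs in a type, with 95% intervals for counting error; colours mark 6 endothelial types and dotted lines 2-fold. Bmp4 in LEC-like cells is the lowest at 0.185 and Bmp4 in HEV-like cells the highest at 3.03, the latter with 87.3% of the Flcn iΔEC UMIs in 5 cells, while Eng is above 1 and Smad7 below 1 in VEC-like cells.

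The LEC-like cells fell into 4 clusters, and Bmp4 was lower in Flcn iΔEC in each, with few cells behind the values of all but cluster 0. Cluster 0, with markers of lymphatic capillaries, had 117 CPM of Bmp4 in control (102 UMIs in 43 cells) and 22.8 CPM in Flcn iΔEC (97 UMIs in 155 cells). Cluster 4, with markers of collecting vessels and valves, had 56.5 CPM (25 UMIs in 21 cells) and 3.30 CPM (10 UMIs in 119 cells). Cluster 8, with markers of lymph node sinuses, had 16.9 and 3.40 CPM, and cluster 11, led by Tnxb and Lyve1, had 38.7 and 1.79 CPM. The ratios were 0.194 (0.146–0.259), 0.0584 (0.0250–0.126), 0.201 (0.0553–0.611) and 0.0463 (0.00106–0.334), all with an upper limit below 1. Only cluster 0 reached 50 UMIs for Bmp4. In control, 100% of the Bmp4 UMIs of clusters 4, 8 and 11 came from 5 cells or fewer each, against 49.0% in cluster 0.

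Id3 separated the same clusters in another way. It was lower in Flcn iΔEC in clusters 0, 4 and 11, at 854 and 416 CPM, 646 and 241 CPM, and 666 and 305 CPM, with ratios of 0.487 (0.447–0.531), 0.373 (0.325–0.429) and 0.457 (0.365–0.572). In cluster 8 it was at 313 in control and 302 CPM in Flcn iΔEC, a ratio of 0.962 (0.817–1.14) within counting error. Id1 was higher in Flcn iΔEC in clusters 0, 4 and 8, with ratios of 1.23 (1.04–1.47), 1.65 (1.32–2.08) and 2.05 (1.51–2.82), and lower in cluster 11, at 0.462 (0.339–0.631) from 82 UMIs in 14 control and 91 UMIs in 22 Flcn iΔEC cells. In control, 93.9% of the Id1 UMIs of cluster 11, 74.4% of those of cluster 4 and 76.9% of those of cluster 8 came from 5 cells, as did 70.1% in cluster 8 of Flcn iΔEC. Over the members, 2 of 7 tested differed at least 2-fold in cluster 0 (11.1% of all genes), 1 of 6 in cluster 4 (12.8%), 1 of 7 in cluster 8 (7.44%) and 2 of 4 in cluster 11 (8.86%).

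Bmp2 in lymphatic cells was almost confined to cluster 8. That cluster had 116 CPM in control (82 of the 88 Bmp2 UMIs of LEC-like cells) and 130 CPM in Flcn iΔEC (191 of 211), a ratio of 1.12 (0.861–1.47). The other clusters had 4 and 15 UMIs (cluster 0), 2 and 3 UMIs (cluster 4) and 0 and 2 UMIs (cluster 11). Of the LEC-like cells, 19 of 97 in control and 43 of 339 in Flcn iΔEC lay in cluster 8, so the lower Bmp2 of all LEC-like cells in Flcn iΔEC (39.0 and 22.6 CPM) went with a smaller share of this cluster. Ptprc, the leukocyte gene for CD45, was also raised in cluster 8, at 114 and 51.0 CPM against 18.4 and 5.16 CPM in cluster 0, and its part in the Bmp2 level was not tested. Eng was lower in Flcn iΔEC in cluster 0, at 349 and 230 CPM, and in cluster 4, at 212 and 149 CPM, and Bmpr2 was lower in the same clusters, with ratios of 0.505 (0.405–0.632) and 0.518 (0.371–0.735).

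**Figure D4:**
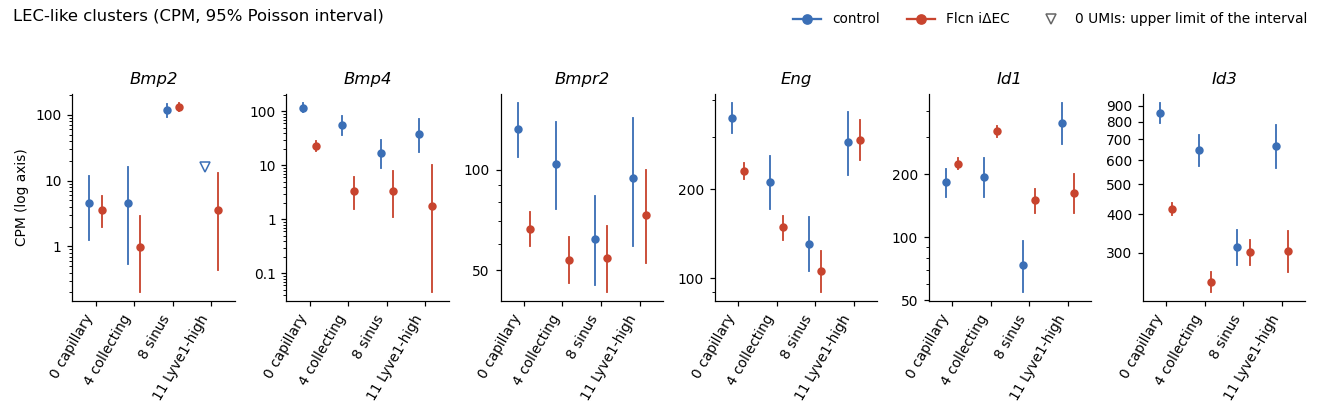
CPM of 6 members (log axes that differ between panels) in the 4 LEC-like clusters of the control (blue) and Flcn iΔEC (red) library, with 95% Poisson intervals and an open triangle for the upper limit where no UMI was counted. Bmp4 is lower in Flcn iΔEC in all 4 clusters, Id3 in all but cluster 8, and Bmp2 stands out in cluster 8.

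Cluster 9 held 47 cells of the Flcn iΔEC library and none of the control library. It had the lymphatic factor Prox1 at 489 CPM, Nr2f2 at 341 CPM and Lyve1 at 4.14 CPM, and its leading genes were Hbb-bs, H19, Meg3 and Mdk. The 6 erythroid markers summed to 11062 CPM in it, against 58.7 CPM in Flcn iΔEC VEC-like cells, and the part of this in its member levels was not tested. Smad6 was present there at 23.4 CPM (16.2–32.8), from 34 UMIs, against 0.536 CPM in LEC-like (5 UMIs) and 49.7 CPM in VEC-like cells of the same library. The cluster 9 over LEC-like and over VEC-like ratios were 43.7 (17.0–143) and 0.472 (0.315–0.688), the first from too few UMIs for the 2-fold rule. Bmp4 was at 76.5 CPM, a ratio of 6.31 (4.81–8.28) over LEC-like and 0.201 (0.164–0.244) over VEC-like cells. For both genes cluster 9 thus lay between the lymphatic and the venous level. Id3, at 1315 CPM, was 3.93-fold (3.71–4.17) above LEC-like and 1.23-fold (1.17–1.31) above VEC-like cells, and Id1, at 777 CPM, 3.23-fold and 1.85-fold. Of 8 members tested, 3 differed at least 2-fold from VEC-like cells (9.14% of all genes) and 5 from LEC-like cells (11.1%).

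Outside the endothelium, Smad7 was the member of T cells. T cell-like cells had 528 and 529 CPM in the control and Flcn iΔEC libraries, which did not differ beyond counting error, and B cell-like cells 162 and 263 CPM, a ratio of 1.62 (1.54–1.71). Smad7 was seen after thinning in 62.6% (60.7–64.5) and 59.8% (56.9–62.8) of T cell-like cells. Id3 was at 157 and 191 CPM in T cell-like and at 97.6 and 166 CPM in B cell-like cells, and Id1 at 15.2 and 26.6 CPM and at 3.62 and 6.58 CPM. In both lymphocyte types Id1 and Id3 were thus higher in Flcn iΔEC by more than counting error, at ratios from 1.21 to 1.82 that stayed under 2-fold. In T cell-like cells 0 of 6 members tested passed the limit (1.88% of all genes), and in B cell-like cells 1 of 5 (2.49%), which was Eng at 1.92 and 3.90 CPM. How far the larger share of endothelial cells in the Flcn iΔEC library contributed to these Id1, Id3 and Eng levels was not tested. Acvrl1 was low in T cell-like cells, at 13.3 CPM in control (268 UMIs) and 6.75 CPM in Flcn iΔEC (61 UMIs), and still lower in B cell-like cells, at 0.735 and 1.04 CPM.

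Bmp2 outside the endothelium belonged to ILC and NK-like cells. They had 83.9 in control and 139 CPM in Flcn iΔEC, a ratio of 1.65 (1.43–1.91). Most of it lay in the cluster led by Il22, which had 135 CPM (336 of 347 UMIs) and 215 CPM (419 of 445 UMIs), whereas T cell-like cells had 3 and 0 UMIs. Bmp2 was in 34.7% (30.1–39.5) of control and 43.0% (37.7–48.4) of Flcn iΔEC ILC and NK-like cells without thinning. Id1 in the same cells was at 10.4 in control and 26.5 CPM in Flcn iΔEC, a ratio of 2.55 (1.75–3.77), and was the only one of 6 members tested to pass the limit there (1.76% of all genes). The part of the larger share of endothelial cells in the Flcn iΔEC library in this Id1 level was not tested.

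Stromal-like cells (25 control and 27 Flcn iΔEC cells), with fibroblast, smooth muscle and mesothelial genes, held Bmp4 at 122 CPM in control (48 UMIs) and 29.0 CPM in Flcn iΔEC (13 UMIs), a ratio of 0.237 (0.118–0.445), and this was 1 of 5 members tested there that passed the limit (4.78% of all genes). Id1 and Id3 stood at 290 and 333 CPM and at 550 and 569 CPM in them, and Smad6 at 30.6 and 15.6 CPM. A cluster led by Fabp1 and Apoa1, genes of enterocytes, had Id1 at 247 and 356 CPM and Smad6 at 12.7 and 8.72 CPM, and Bmp2 at 4.59 and 10.2 CPM. Erythroid-like cells had no UMI of Bmp2, Bmp4, Bmp6, Bmpr2, Acvrl1 or Smad6 in either library. In macrophage-like cells, Id1 (38.1 and 83.4 CPM, from 21 and 29 UMIs) and Id3 (70.8 and 31.6 CPM, from 39 and 11 UMIs) were 2 of 3 members tested that passed the limit (13.1% of all genes). A cluster below the Cdh5 gate that carried endothelial markers had Id3 at 834 and 306 CPM, the 1 of 5 members that passed the limit there (15.9%), and Id1 at 413 and 316 CPM.

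**Figure D5:**
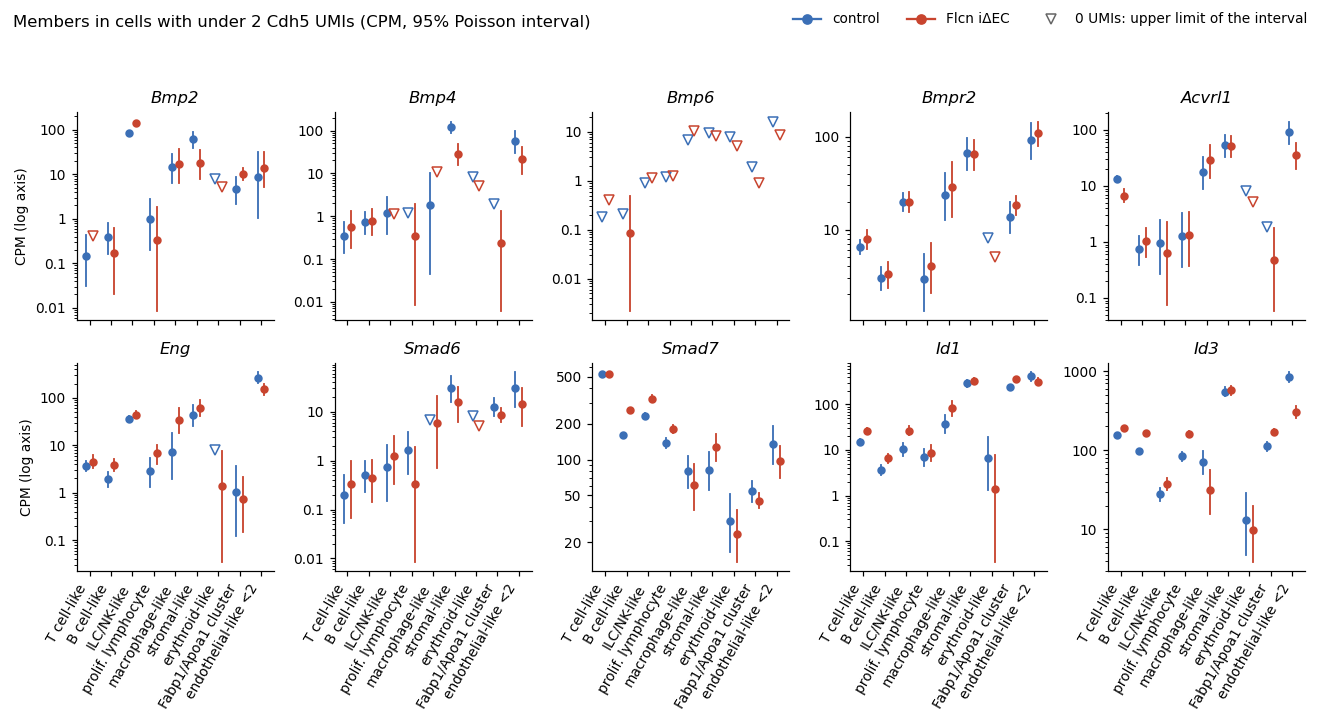
CPM of each member (log axes that differ between panels) in types of cells with under 2 Cdh5 UMIs, for control (blue) and Flcn iΔEC (red), with 95% Poisson intervals and open triangles for upper limits where no UMI was counted. Smad7 is highest in T cell-like cells, at 528 and 529 CPM, Bmp2 in ILC and NK-like cells, at 83.9 and 139 CPM, and Bmp4 in stromal-like cells, at 122 and 29.0 CPM.

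The other 73 genes of the pathway list were counted by the same rule. In VEC-like cells 4 of 37 tested were higher and 3 lower in Flcn iΔEC, where 7.78% of all genes differed, and in LEC-like cells 5 of 43 were higher and 8 lower, where 11.1% of all genes differed. Gdf15, a stress-induced member of the TGF-β family, was at 15.3 CPM in control VEC-like cells (22 UMIs) and at 426 CPM in Flcn iΔEC ones (1321 UMIs), a ratio of 27.9 (18.3–44.6). In LEC-like cells it was at 26.2 and 1392 CPM, and in AEC-like cells at 2.63 and 351 CPM. Neo1, which encodes the receptor neogenin, was at 8.34 and 85.8 CPM in VEC-like cells and at 80.7 and 240 CPM in LEC-like cells. Thbs1, whose product activates latent TGF-β, was at 160 and 523 CPM in VEC-like cells, at 6.14 and 178 CPM in AEC-like cells and at 148 and 312 CPM in LEC-like cells. Ltbp1, which holds latent TGF-β in the matrix, went the other way, at 99.3 and 18.4 CPM in VEC-like cells and 131 and 24.2 CPM in LEC-like cells. Bambi, a pseudoreceptor that dampens the pathway and is itself a target of it, was at 151 and 71.9 CPM in VEC-like cells and at 137 and 33.8 CPM in LEC-like cells.

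A pathway gene passed the limit in opposite directions in VEC-like and LEC-like cells, and others passed it in some types only. Tgfbi, which encodes a matrix protein induced by TGF-β and is named here after its values were seen, was at 47.9 and 115 CPM in VEC-like cells, a ratio of 2.40 (1.85–3.15), and at 92.3 and 31.7 CPM in LEC-like cells, a ratio of 0.344 (0.287–0.413). Of the 208 control UMIs of Tgfbi in LEC-like cells 170 lay in cluster 8, at 240 and 119 CPM, and in cluster 11 Tgfbi was higher in Flcn iΔEC, at 17.2 and 96.7 CPM. Tgfb2 was at 39.6 in control and 11.6 CPM in Flcn iΔEC VEC-like cells. In cluster 4 of the LEC-like cells Tgfb2 was higher in Flcn iΔEC, at 20.3 (9 UMIs) and 53.5 CPM, a ratio of 2.63 (1.35–5.85). In HEV-like cells, where 4.30% of all genes differed, 5 of 35 were higher and none lower, among them Mgp, an inhibitor of BMPs, at 12.8 and 161 CPM. Inhbb, an activin subunit, was at 2.89 and 17.1 CPM in HEV-like and at 32.8 and 244 CPM in capillary-like cells. Over all endothelial cells the type II receptor Tgfbr2 was at 183 in control and 170 CPM in Flcn iΔEC, and the receptor Smad gene Smad1 at 129 and 146 CPM, and neither passed the limit.

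Each member but Bmp6 was compared with 13689 genes across 39 groups of type and library with at least 20 cells, endothelial and other types together. The genes whose log2(CPM + 1) followed it most closely were named, as a description of points that share libraries. Such an r does not separate likeness among vessel types from a difference between endothelial and other cells. Bmp4 was nearest to Megf6 (Pearson r = 0.969) and Eln (0.956), Eng to Hip1 (0.959) and Plvap (0.957), and Bmpr2 to Fndc3b (0.959) and Wdfy3 (0.954). Id1 was nearest to Uaca (0.943) and Cd151 (0.941), Id3 to Ccnyl1 (0.894) and Heg1 (0.889), Acvrl1 to Plod1 (0.934) and Nhsl2 (0.930), and Smad6 to Fam129b (0.913) and Sorbs2 (0.894). Smad7 and Bmp2 had weaker partners, Arhgef1 (0.824) and Mbnl1 (0.817) for Smad7, and Rasl11a (0.789) and Spry2 (0.781) for Bmp2.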

How the data were processed

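CD31+ mesenteric cells were profiled with a droplet-based 3′ kit. The authors aligned reads and counted UMIs with Cell Ranger 3.0 against mm10 (the submitters' processing notes), and the deposited values are raw counts per gene and cell for barcodes that Cell Ranger called cells. Counts were clustered in Seurat 5.3.0 (R 4.3.3) with anchor integration, 2000 variable features, 30 dimensions and resolution 0.8, separately for cells above and below the Cdh5 gate. Members and other pathway genes were removed from the features, which left 1976 and 1983. Clusters were named from fixed marker lists, with at least 3 markers 2-fold above the other cells and seen in at least 10% of cells. For LEC-like clusters, 2 LEC markers were enough if a lymphatic subtype list reached 3, as in cluster 8. An endothelial cluster whose leading genes held more blood cell markers than markers of its own type was left unnamed. Doublets were marked with Scrublet in scanpy 1.11.5 (142 control and 37 Flcn iΔEC cells) and kept, and 6 barcodes occurred in both libraries.

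Summed counts were scaled to CPM in Python 3.11.15, with exact Poisson intervals for levels, exact conditional intervals for ratios and Clopper-Pearson intervals for shares, all at 95%. An absent gene was given the limit that 3 counts set. With 1 library per genotype, no test was run. The rule of a 2-fold ratio with at least 50 UMIs was tested on simulated counts with 4-fold changes and counting error only. It recovered the changed genes that reached the minimum, and changes near the 2-fold limit were not simulated. The members, the pathway list and the alternatives were chosen with earlier results of these data known. Pathway genes were named by a fixed rule, up to 4 of those past 2-fold per type by ratio and up to 2 per role by level, and for each member the 2 genes most alike. Gene positions are from GENCODE on GRCm38. Of the pathway list, 83 genes were in the files. Alternatives changed the Cdh5 gate, cell filters, doublets, integration, resolution, dimensions, features, scaling, cell weight, pseudocount, count minimum, fold rule and thinning.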

Additional observations from a re-analysis of the deposited data

Results flagged for a closer look

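Among VEC-like, LEC-like, AEC-like and capillary-like cells, 6 members had a ratio of Flcn iΔEC to control above 1 in one type and below 1 in another, with both counting intervals clear of 1. With 1 library per genotype these differences between types were not tested. Eng was higher in VEC-like (1.75) and capillary-like cells (1.21) and lower in LEC-like cells (0.758). Id3 was higher in VEC-like cells (1.13) and lower in LEC-like (0.536) and AEC-like cells (0.740), whereas Id1 was higher in LEC-like cells (1.43) and lower in VEC-like (0.854) and AEC-like cells (0.775). Capillary-like cells, which were few (26 control and 17 Flcn iΔEC), gave the other cases among these types. Bmpr2 was higher there (2.04) and lower in VEC-like (0.730) and LEC-like cells (0.605). Acvrl1 was higher there (1.64) and lower in VEC-like (0.714), LEC-like (0.768) and AEC-like cells (0.682). Smad7 was higher there (1.55) and lower in VEC-like (0.487) and AEC-like cells (0.708). HEV-like cells were not among the types compared by this rule. In them Bmp4 (3.03, 1.66–5.90), Bmp2 (interval 1.33–1.94), Bmpr2 (1.27, 1.05–1.54) and Smad7 (1.24, 1.10–1.41) were higher, whereas Bmp4 was lower in LEC-like cells (0.185) and Bmp2 in VEC-like cells (0.443).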

How the results depend on the processing

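The counts of members above or below 2-fold were recomputed under other settings, and 113 of 133 stayed within 1.5 times the first count. Over all endothelial cells, and for LEC-like against blood and endothelial against other cells, every count run stayed there. In LEC-like cells the count rose from 1 to 2 with a gate of 1 Cdh5 UMI, without integration, with 20 dimensions, with each cell given equal weight and with the rule that the whole interval lie beyond 1.5-fold. In VEC-like cells it went from 2 to 1 at resolution 1.6, with mitochondrial, ribosomal and hemoglobin genes left out of CPM, with median-of-ratios scaling, with equal weight and with a minimum of 100 counts. In AEC-like cells it went from 0 to 1 without a minimum of counts. In capillary-like cells it went from 1 to 0 with a gate of 1 Cdh5 UMI, without integration, at resolution 1.6, with 20 dimensions, with pathway genes among the features, with the smaller CPM total, with equal weight and with the interval rule, and to 3 without a minimum of counts. The log2 ratio of Bmpr2 in capillary-like cells, 1.02, turned to -0.299 with a gate of 1 and -0.221 with a gate of 3 Cdh5 UMIs. Of the 518 log2 ratios of members, 54 others moved beyond their interval and 462 did not. The causes were not tested. Without integration only 1 Flcn iΔEC cell was VEC-like, so that setting gave no VEC-like ratio, and at resolution 0.4 no capillary-like cluster was left. Of 160 shares, 121 moved beyond their interval with thinning to 1000 UMIs or with none. No paired analysis was possible because each genotype has 1 library. Limits: the libraries differ in sex and share no replicate, intervals cover counting error only, and a UMI count of 0 limits the level and not the presence of a gene.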
